A study of Mus musculus with 4 samples.

Results

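The genes examined were those of small stable noncoding RNAs: box C/D small nucleolar RNAs (symbols beginning Snord), box H/ACA small nucleolar RNAs (Snora), small Cajal body RNAs (Scarna), Y RNAs (Rny) and the RNAs of RNase MRP, RNase P and the 7SK particle (Rmrp, Rpph1, the RNase P RNA-like Rprl genes and Rn7sk). Probe sets were chosen by symbol alone, where the annotation gave exactly 1 symbol. This gave 68 probe sets of 61 genes, among 21789 probe sets with a single symbol and 35512 in all. They comprised 33 box C/D, 23 box H/ACA, 4 scaRNA and 2 Y RNA probe sets and 6 of Rmrp, Rn7sk, Rpph1 and Rprl. All 68 matched a RefSeq gene of GRCm38.p6, of a length between 45 and 332 bases.

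The arrays were from SV40-transformed fibroblasts of C57BL/6 mouse embryos of day 13.5 that lack both BAX and BAK, a genotype shared by every group, the GFP cells included. The 4 groups were p63-virus cells given etoposide at 10 µg/mL for 6 h, p63-virus cells given mock treatment, GFP-virus cells given etoposide, and GFP-virus cells given mock treatment (the labels also state the dose with the same number per microlitre). Etoposide traps topoisomerase II on broken DNA. Each group had 1 Affymetrix Mouse Gene 1.0 ST array, so there is no spread between replicates, and neither tests nor p-values are given. Values are the deposited RMA signals (log2), and a difference of at least 1, or 2-fold, is called higher or lower. Each virus is represented by 1 transduced line, and the promoter of the virus and the isoform of p63 are not stated.

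Box C/D and box H/ACA snoRNAs guide the methylation of ribose and the conversion of uridine to pseudouridine in ribosomal RNA, and a few act in its cleavage. In vertebrates most of them are not transcribed on their own but are trimmed out of introns of RNA polymerase II genes, many of which encode ribosomal proteins or serve mainly as snoRNA carriers. Rny1, Rny3, Rmrp, Rpph1 and Rn7sk by contrast are transcribed by RNA polymerase III from promoters that lie upstream of the gene. An array probe within a snoRNA can read the mature RNA and unspliced host transcript alike, and in bulk RNA fewer cells and less RNA per cell cannot be told apart.

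Trp63 read 9.29, 8.75, 5.59 and 4.87 on the p63 etoposide, p63 mock, GFP etoposide and GFP mock arrays, high on both arrays labelled p63. Of 12 fibroblast markers 8 averaged at or above 5.87, the median of all values of named probe sets, and Dcn, Lum, Pdgfra and Thy1 did not. Of 16 markers of simple epithelium, blood, endothelium and neural cells 3 did so (Krt8, Cd68 and Tubb3). The p63 mock array stood apart from the other 3 in many named probe sets, with 34 higher and 65 lower by at least 1 than each of the rest where the rest spanned at most 0.5; for any other array neither number was above 18. On the same arrays the summed linear signals (log2) of the 4 blood markers were 7.56, 6.76, 7.50 and 6.998, those of the 4 epithelial markers 7.37, 7.84, 7.51 and 7.23, and those of the fibroblast markers 14.20, 14.15, 14.30 and 14.52. Single genes set the first pair of sums, since the p63 mock array minus the median of the rest was -1.58 for Cd68 and 1.01 for Krt8 and between -0.26 and 0.29 for the other 6. The part of these cell types in the results was not tested.

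**Figure D1:**
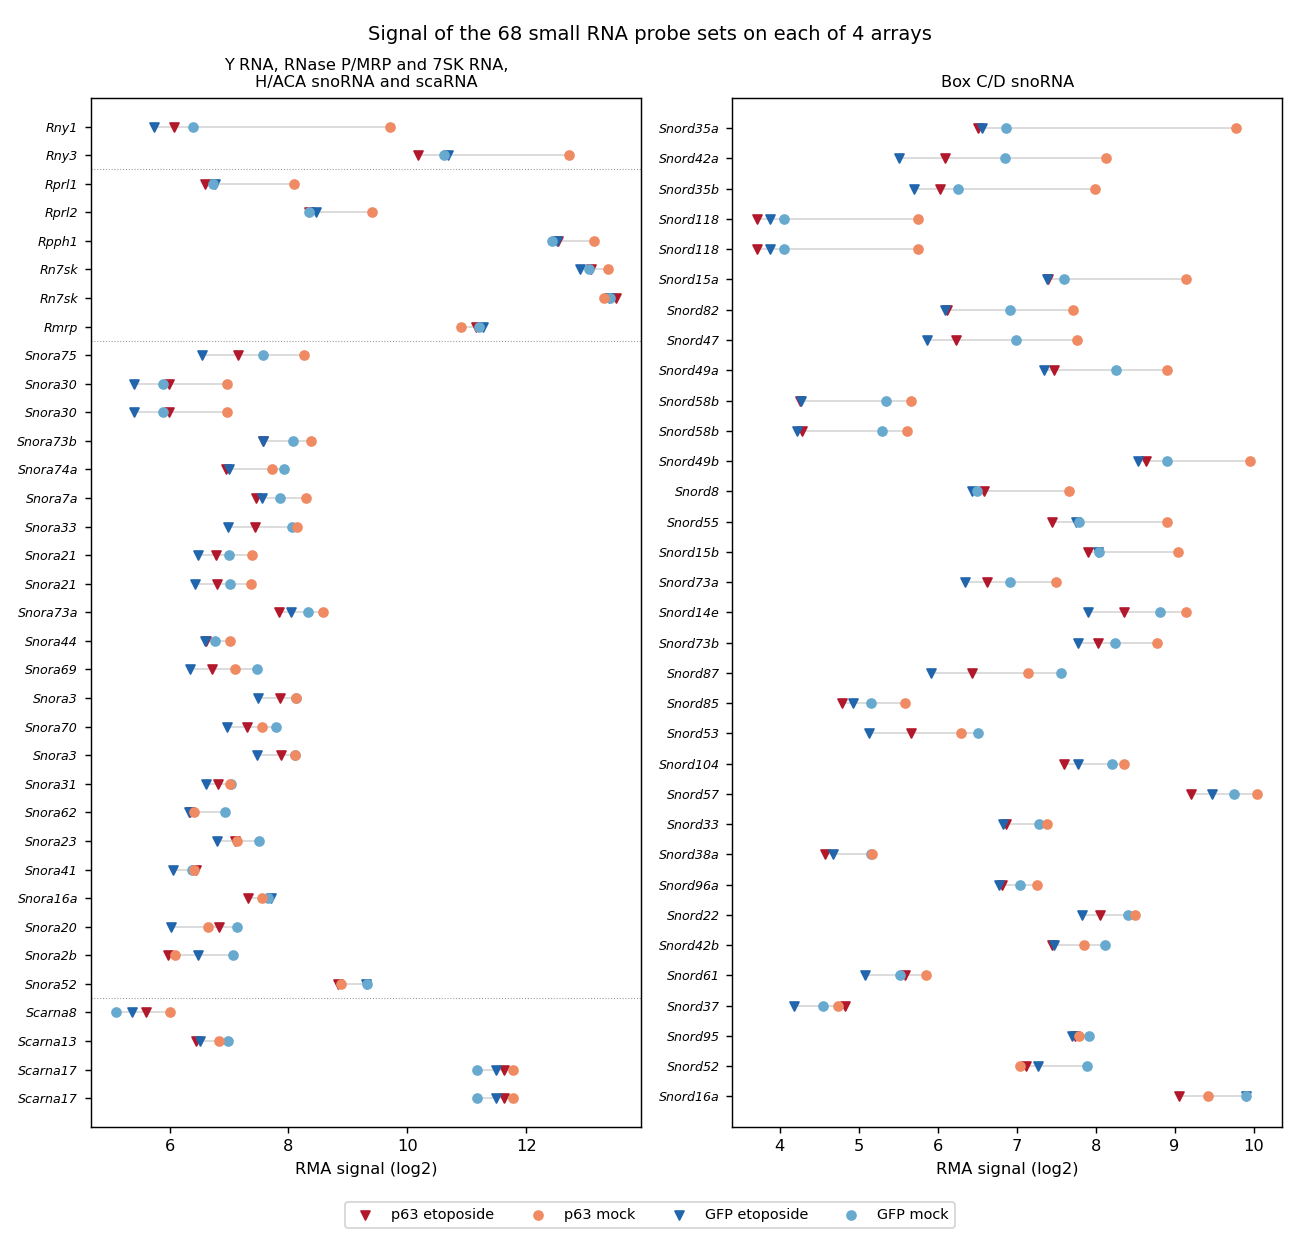
RMA signal (log2, horizontal axis) of each of the 68 small RNA probe sets (rows, by gene; dotted lines part the families) on the 4 arrays. Red and dark blue triangles are the p63 etoposide and GFP etoposide arrays, orange and light blue circles the p63 mock and GFP mock arrays. In most rows both triangles lie left of both circles, while in Rny1, Rny3, Rprl1, Rprl2, Snord35a, Snord118 and Snord15a the p63 mock circle lies alone to the right.

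Etoposide was accompanied by lower signals of small nucleolar RNAs in both lines, and the p63 mock array alone carried a further excess of Y RNAs, RNase P-like RNAs and a group of box C/D RNAs. In p63 cells 20 of the 68 probe sets were lower by at least 1 after etoposide and 0 were higher, where 1.06% of all named probe sets were lower and 3.42% higher. In GFP cells, a comparison that does not use the p63 mock array, 10 were lower and 0 higher, where 1.32% of all were lower and 2.02% higher. The median over the 68 was -0.67 in p63 cells and -0.46 in GFP cells, against -0.04 and 0.03 over all named probe sets. Differences were below 0 for 62 of the 68 in p63 cells and 58 in GFP cells, and for 53.8% and 45.9% of all named probe sets.

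The etoposide comparisons of the 2 lines share no array, so the order of the 4 arrays can be read across them. For 46 of the 68 probe sets (67.6%) both etoposide arrays lay below both mock arrays, and for 0 both lay above, where 18.8% and 19.3% of all named probe sets did so. With 1 probe set a gene the count was 42 of 61. With the p63 mock array left out, both etoposide arrays lay below the GFP mock array for 50 of the 68, or 73.5%, against 36.2% of all. This weaker order, with the GFP mock array as the only mock array, thus held for most of the set. Its share depended on the mean level. Below the median level it was 66.7% of the small RNAs against 22.5% of all named probe sets. From there to a mean of 7.81 it was 82.9% against 45.9%. Above 7.81 it was 62.5% against 54.0%, so the brightest small RNAs were near other probe sets of like level.

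**Figure D2:**
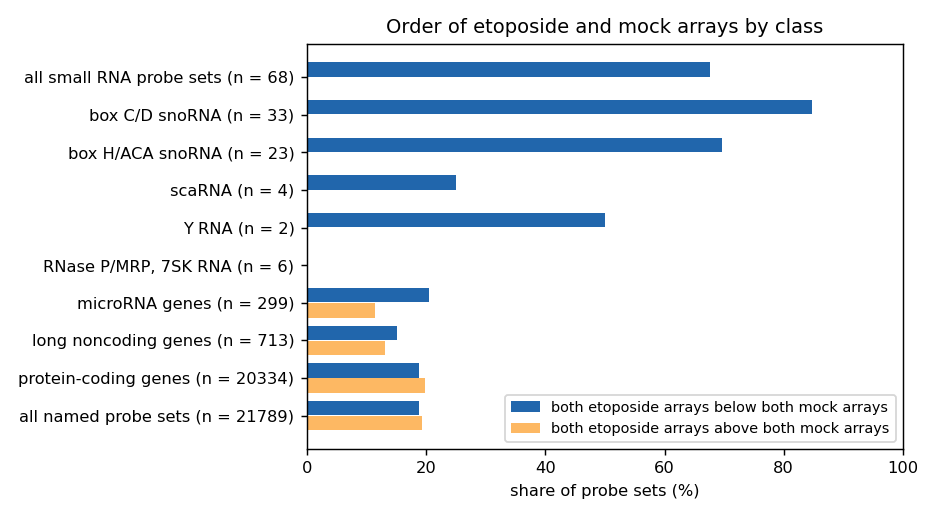
Share of probe sets (percent, horizontal axis from 0) whose etoposide arrays lie both below (blue) or both above (orange) the mock arrays, for the small RNA families, other gene classes and all named probe sets, with the number of probe sets in brackets. Box C/D and box H/ACA snoRNAs reach 84.8% and 69.6% below and 0% above, and the microRNA, long noncoding and protein-coding classes lie near 20% or under.

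The order was found in the snoRNA families. Among box C/D probe sets 28 of 33 had both etoposide arrays below both mock arrays, and among box H/ACA probe sets 16 of 23. In GFP cells 97.0% of the box C/D and 95.7% of the box H/ACA probe sets had an etoposide difference below 0, with medians of -0.46 and -0.58. Of the 6 Rmrp, Rn7sk, Rpph1 and Rprl probe sets 0 had this order, of the Y RNAs 1 of 2 did and of the scaRNAs 1 of 4, and their medians in GFP cells were 0.06, -0.29 and 0.30. Probe sets of microRNA genes, which are also short, had the order in 20.4% of 299, with a median etoposide difference of 0.09 in GFP cells. In p63 cells their median was -0.21, with 73.2% below 0, and the p63 mock array minus the median of the rest had a median of 0.19. Most of them, 246 of the 299, lay below the median level. These dim microRNA probe sets had a p63 mock median of 0.18, against 0.11 over all named probe sets there. Their share below 0 in p63 cells was 74.8%, against 67.6%, so much of this shift was shared by dim probe sets at large. For the 48 in the next band of level the values were 0.25 against -0.08, and 66.7% against 41.9%. Part of the p63 mock pattern described below was thus also found in microRNA genes, more clearly in these 48. Of 12 fibroblast markers 6 had the order too.

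Snord87, which lies within the transcript of the snoRNA host gene Snhg6, had the lowest etoposide difference of the set in GFP cells. It read 6.43 in p63 etoposide, 7.14 in p63 mock, 5.91 in GFP etoposide and 7.57 in GFP mock cells, so that both etoposide arrays were low. The differences were -0.71 in p63 cells and -1.65, or 3.14-fold lower, in GFP cells.

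Snord53, a box C/D RNA within Wdr43, read 5.66, 6.30, 5.12 and 6.51 in the same order of arrays. Its differences were -0.63 in p63 cells and -1.39 in GFP cells, with both etoposide readings below 5.87, in the dimmer part of all readings. Snord42a, within the ribosomal protein gene Rpl23a, read 6.10, 8.13, 5.51 and 6.86, and was lower by at least 1 in both lines, at -2.03 and -1.34.

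The probe sets lower by at least 1 in both lines numbered 5, of 4 genes, where 0.367% of all named probe sets were. Besides Snord42a these were Snord47, within Gas5, at -1.53 in p63 cells and -1.12 in GFP cells, Snora75, within the nucleolin gene Ncl, at -1.11 and -1.02, and Snord58b, within Rpl17. Both probe sets of Snord58b read below 5.87 on all 4 arrays, so its differences of -1.33 and -1.41 in p63 cells and -1.07 in GFP cells are between dim signals. A further 15 probe sets reached -1 in p63 cells alone and 5 in GFP cells alone.

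The families differed in which line had the lower etoposide difference. It was p63 cells in 24 of 33 box C/D probe sets (72.7%) and in 10 of 23 box H/ACA probe sets (43.5%). Of all named probe sets it was 51.7%, with 34.1% from the median mean level to 7.81 and 23.0% above that. The box H/ACA share was thus not far from that of named probe sets at large. Snora69, within Rpl39, read 6.71, 7.10, 6.34 and 7.47 in p63 etoposide, p63 mock, GFP etoposide and GFP mock cells, or -0.38 and -1.13 by line. Snora33, within Rps12, stood at -0.71 and -1.07, and Snora70, within Rpl10, at -0.25 and -0.84. Snora20, within the chaperonin gene Tcp1, stood at 0.19 and -1.12. These are examples in which the value in GFP cells was below that in p63 cells, while 10 of the 23 went the other way. Median differences of the family were -0.38 in p63 cells and -0.58 in GFP cells, while those of the box C/D family were -0.84 and -0.46.

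Snora73a and Snora73b, which act in the cleavage of ribosomal RNA precursors and lie within Snhg3, were at -0.75 and -0.81 in p63 cells and -0.29 and -0.50 in GFP cells. Snora74a, within Snhg4, was at -0.77 and -0.92. Snora52, within Rplp2, hardly differed after etoposide, at -0.06 and -0.02, and its signal was lower in p63 cells than in GFP cells under both treatments, at -0.47 with etoposide and -0.43 with mock treatment.

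**Figure D3:**
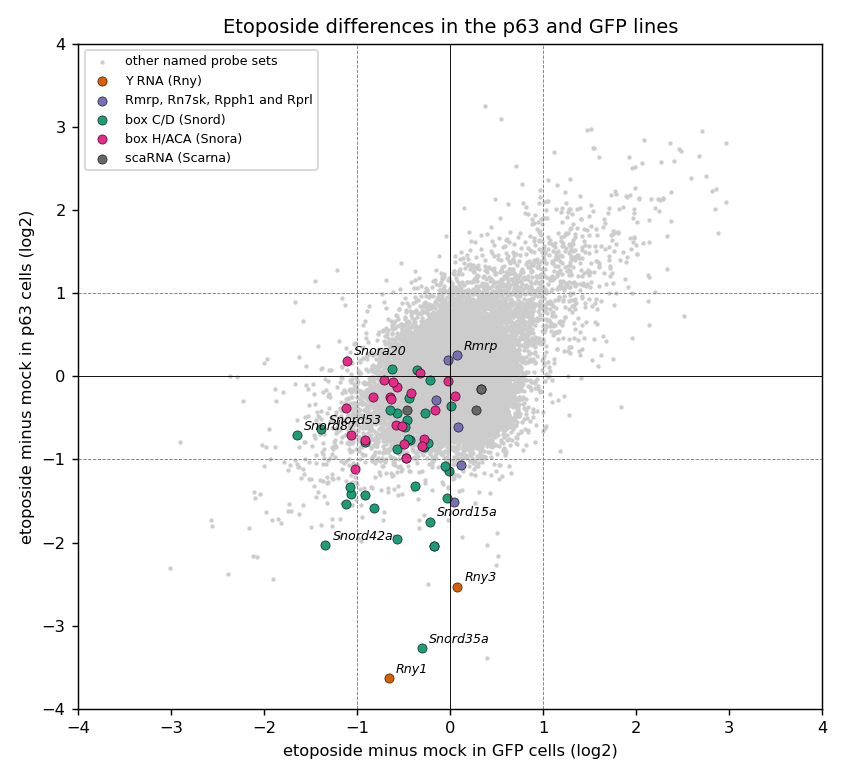
Etoposide minus mock in p63 cells (vertical axis, log2) against the same in GFP cells (horizontal axis, log2) for the small RNA probe sets, coloured by family, and all other named probe sets (grey); dashed lines mark a difference of 1. The snoRNAs lie mainly in the lower left, while Rny1, Rny3 and Snord35a lie far down with GFP values between -0.66 and 0.08.

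The sizes of the differences did not follow each other across the lines. Between p63 and GFP cells Pearson's r over the 68 probe sets was 0.09 and Spearman's rho 0.10, against 0.42 and 0.22 over all named probe sets, as a description of points that share arrays and include near-duplicate probe sets. Of the 20 probe sets lower by at least 1 in p63 cells 5 were so in GFP cells, both of Snord58b among them. Of the 10 in GFP cells the same 5 were so in p63 cells. Of all named probe sets 231 were lower in p63 cells and 288 in GFP cells, with 80 lower in both. By these counts the overlap of the small RNAs was not clearly smaller than that of all named probe sets.

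Between p63 and GFP cells, differences of at least 1 were more frequent than over all named probe sets in mock-treated cells only. In mock-treated cells 16 of 68 probe sets were higher with p63 by at least 1 and 0 were lower, where 1.69% of all named probe sets were higher and 2.07% lower. In etoposide-treated cells, where the p63 mock array takes no part, 0 were higher and 0 lower, where 0.762% and 0.285% of all were. With 68 probe sets, counts of 0 are near those shares, and the differences ran from -0.85 to 0.80. The medians were 0.08 in etoposide-treated and 0.32 in mock-treated cells, against -0.03 and 0.03 over all.

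A few snoRNAs had lower signals in p63 cells. Snord16a, within Rpl4, read 9.06 in p63 etoposide, 9.42 in p63 mock, 9.91 in GFP etoposide and 9.90 in GFP mock cells, so both p63 arrays lay below both GFP arrays. Its p63 minus GFP difference of -0.85 in etoposide-treated cells was the lowest of the 68. Snora2b, within Kansl2, read 5.97, 6.09, 6.48 and 7.06, also with both p63 arrays lower, and its difference in mock-treated cells was -0.97. Snord52 read 7.12, 7.04, 7.27 and 7.89, with the GFP mock array alone on top.

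At the other end Snora30, within Srcap, read 5.99, 6.97, 5.41 and 5.89 on both of its probe sets. It was higher with p63 by 0.58 in etoposide-treated and by 1.08 in mock-treated cells. Snora20 had the highest difference in etoposide-treated cells, at 0.80, and stood at -0.50 in mock-treated cells.

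The p63 mock array was the highest of the 4 for 45 of the 68 probe sets, against 31.1% of all named probe sets, and the GFP mock array for 17. Set against the median of the other 3 arrays, the p63 mock array was higher by at least 1 in 22 probe sets and lower in 0, where 1.37% of all were higher and 2.82% lower. On the p63 etoposide array 0 were higher and 2 lower, where 2.01% and 0.523% of all were. On the GFP etoposide array 0 were higher and 8 lower, where 1.41% and 0.895% of all were, and on the GFP mock array 3 and 0, where 1.19% and 2.12% were. The medians of these differences over the 68 were -0.31 on p63 etoposide, 0.61 on p63 mock, -0.38 on GFP etoposide and 0.28 on GFP mock. Since 2 of the other 3 arrays were of etoposide-treated cells, this measure also takes up the etoposide difference.

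**Figure D4:**
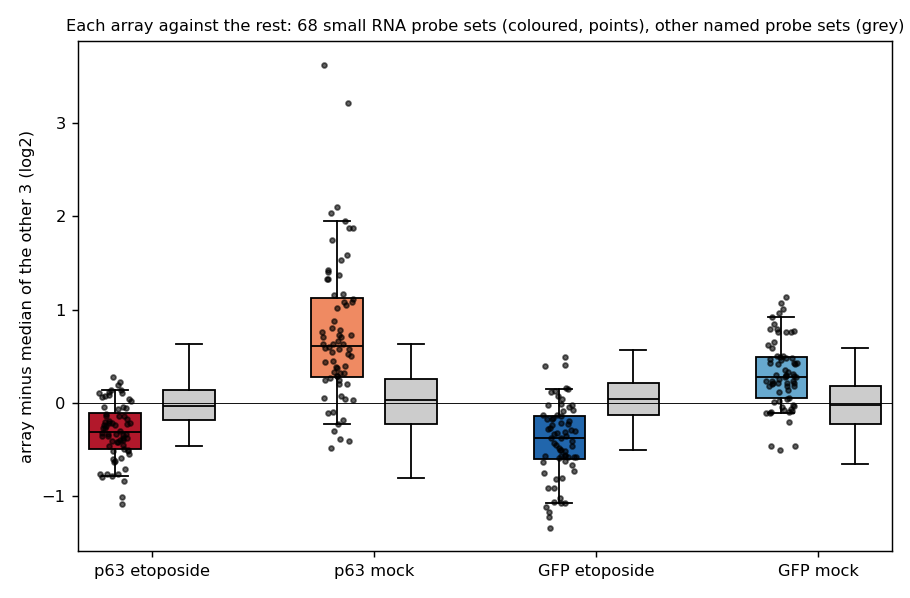
Each array minus the median of the other 3 (vertical axis, log2), for the 68 small RNA probe sets (coloured boxes with points) and all other named probe sets (grey boxes). Boxes span the quartiles, the line is the median and whiskers run from the 5th to the 95th percentile. The small RNAs are shifted down on both etoposide arrays and up on both mock arrays, with medians of 0.61 on p63 mock and 0.28 on GFP mock, and the small RNA points above 2 are all on the p63 mock array.

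A narrower measure asks for probe sets that differ by at least 1 from every other array while those others lie within 0.5 of one another, which an etoposide difference shared by the lines does not meet. On the p63 mock array 9 of the 68 probe sets, of 8 genes, were apart in this way, all of them higher, where 0.156% of all named probe sets were higher and 0.298% lower. They made up 26.5% of the 34 named probe sets that were so. On each of the other 3 arrays 0 of the 68 were apart, where 0.00918% of all were higher on p63 etoposide, 0.00918% lower on GFP etoposide, and 0.0826% higher and 0.0413% lower on GFP mock. The 9 were Rprl1, Snord15a, Snord15b, Snord35a, Snord49b, Snord55, Snord8 and both probe sets of Snord118. Where the other arrays may span 1, the count was 12, with Rny1, Rny3 and Snord35b added, where 0.638% of all named probe sets were apart in either direction.

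Rny1 encodes a Y RNA, a short RNA bound by Ro60 and La that also takes part in starting DNA replication. It read 6.07 in p63 etoposide, 9.70 in p63 mock, 5.73 in GFP etoposide and 6.40 in GFP mock cells, with the GFP etoposide reading below 5.87. The p63 mock value lay 3.30 above the next highest, and the other 3 spanned 0.66. In mock-treated cells the p63 signal was 9.88-fold that of GFP.

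Rny3, the other Y RNA on the arrays, read 10.19, 12.72, 10.69 and 10.62 in the same order, with the p63 mock array again alone above the rest. Its differences were -2.53 after etoposide in p63 cells and 0.08 in GFP cells. The p63 minus GFP difference was -0.51 in etoposide-treated cells and 2.10, or 4.29-fold, in mock-treated cells.

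Rpph1, the catalytic RNA of RNase P, which trims the 5′ ends of transfer RNAs, read 12.54, 13.15, 12.51 and 12.43. The p63 mock array was higher by 0.61 than the next, and the rest lay within 0.11. Rprl1 and Rprl2, which RefSeq lists as RNase P RNA genes, read 6.59, 8.10, 6.77 and 6.72, and 8.34, 9.41, 8.46 and 8.35. In both the p63 mock reading stood alone, by 1.33 and 0.94 above the next, and their etoposide differences in GFP cells were 0.04 and 0.11.

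Other RNAs of this group differed little between arrays. Rmrp, the RNA of RNase MRP, which cleaves ribosomal RNA precursors, read 11.16, 10.90, 11.28 and 11.21, with the p63 mock array the lowest. Rn7sk, the RNA that holds the elongation factor P-TEFb inactive, had differences between -0.28 and 0.32 over its 2 probe sets and all 4 comparisons. Its probe sets differed in the sign of the p63 minus GFP difference in mock-treated cells, at -0.10 and 0.32. The excess on the p63 mock array was thus not shared by all RNA polymerase III transcripts on the arrays.

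Snord35a, a box C/D RNA from an intron of Rpl13a that has been tied to the response of cultured rodent cells to lipid excess, read 6.51, 9.78, 6.56 and 6.87 in p63 etoposide, p63 mock, GFP etoposide and GFP mock cells. The p63 mock array stood 2.91 above the next, and the others spanned 0.36. Its etoposide differences were -3.27 in p63 cells and -0.31 in GFP cells. Snord35b read 6.03, 7.99, 5.69 and 6.26, also with p63 mock alone on top, by 1.72.

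Snord15a and Snord15b, both within Rps3, read 7.40, 9.15, 7.39 and 7.60, and 7.90, 9.04, 8.03 and 8.04. Their etoposide differences were -1.75 and -1.14 in p63 cells and -0.22 and -0.01 in GFP cells. Snord118, the U8 RNA that is needed to process the RNAs of the large ribosomal subunit and is transcribed from its own promoter, read 3.71, 5.75, 3.87 and 4.05 on both of its probe sets. All of these are below 5.87, so the gap of 1.71 is between dim readings, and no fold is given.

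Snord55 read 7.45, 8.91, 7.75 and 7.79 in the same order. Snord8, within the chromatin remodeller gene Chd8, read 6.58, 7.66, 6.43 and 6.49. Snord49b, within the noncoding gene 2410006H16Rik, read 8.64, 9.96, 8.53 and 8.91 and completed the 9. Over the 9 the etoposide difference in GFP cells ran from -0.38 to 0.04, with a median of -0.18, against -0.46 over the 68. The probe sets that the p63 mock array set apart therefore differed little where that array was not used, a condition that their definition itself imposes.

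The difference of the etoposide differences, p63 cells minus GFP cells, was at or below -1 in 12 of the 68 probe sets and at or above 1 in 1, Snora20, where 2.28% and 1.75% of all named probe sets were. The 12 were Rny1, Rny3, Rprl1, Rprl2, Snord15a, Snord15b, Snord35a, Snord35b, Snord55, Snord8 and both of Snord118. The lowest were Rny1 at -2.97, Snord35a at -2.96 and Rny3 at -2.61.

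With the GFP mock array in place of the p63 mock array, so that p63 etoposide was set against GFP mock, 4 probe sets were lower by at least 1 and 0 were higher, where 1.51% of all were lower, in place of 20. These were Snora2b, Snord87 and both of Snord58b. The median over the 68 was then -0.34, against -0.01 over all. This comparison changes virus and treatment together, so the part of each cannot be told apart. Snora2b, for one, stood at only -0.13 after etoposide within p63 cells. The count thus fell without the p63 mock array, while the median stayed below 0.

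The p63 mock array had a slightly narrower spread over all probe sets than the others, with an SD of 2.28 against 2.37 to 2.39. On it dim probe sets read higher and bright ones lower, so the small RNAs were compared with probe sets of like mean level. Over all named probe sets the p63 mock array minus the median of the rest had a median of 0.11 below the median level, -0.08 from there to a mean of 7.81 and -0.12 above that. Over the small RNAs it was 0.66, 0.60 and 0.58 in these bands, with 9, 35 and 24 probe sets. In GFP cells the etoposide differences of the small RNAs were -0.36, -0.58 and -0.19 by band, against 0.13, -0.08 and -0.11 over all. Whether the amount or quality of RNA on that array had a part in these values was not tested.

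Of the 68 probe sets 58 lay within the span of another gene in RefSeq. For 30 small RNAs such a host was itself on the arrays, with 26 hosts, and the host's probe set of highest mean was used. The direction of transcription was not used in this match, so a containing gene need not be the true host, as for Snord87, whose only containing gene with a probe set was Mcmdc2, with a mean of 3.30. Ribosomal protein hosts also have many processed copies in the genome, and Rps12 and Rpl23a have 14 and 13 probe sets, so their values may include those copies. The median etoposide difference of these small RNAs was -0.62 in p63 cells and -0.57 in GFP cells, while that of the hosts was 0.13 and -0.10. The small RNA stood below its host in 28 of 30 pairs in p63 cells and in 25 of 30 in GFP cells.

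Of these small RNAs 7 were lower by at least 1 in p63 cells and 7 in GFP cells, where 1.06% and 1.32% of all named probe sets were. Of their hosts 0 and 0 were, which is near those shares. The count of hosts also depends on the probe set used, since another of Gas5 stood at -1.88 in GFP cells. Ncl, for example, stood at -0.09 in p63 cells and -0.16 in GFP cells, while within it Snora75 stood at -1.11 in p63 cells and -1.02 in GFP cells and Snord82 at -1.59 and -0.82. Rps3 stood at -0.10 and 0.18. Across the 30 pairs the Spearman correlation of the small RNA with its host was 0.45 in p63 cells and 0.42 in GFP cells, a description in which several small RNAs share a host and all share the arrays.

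**Figure D5:**
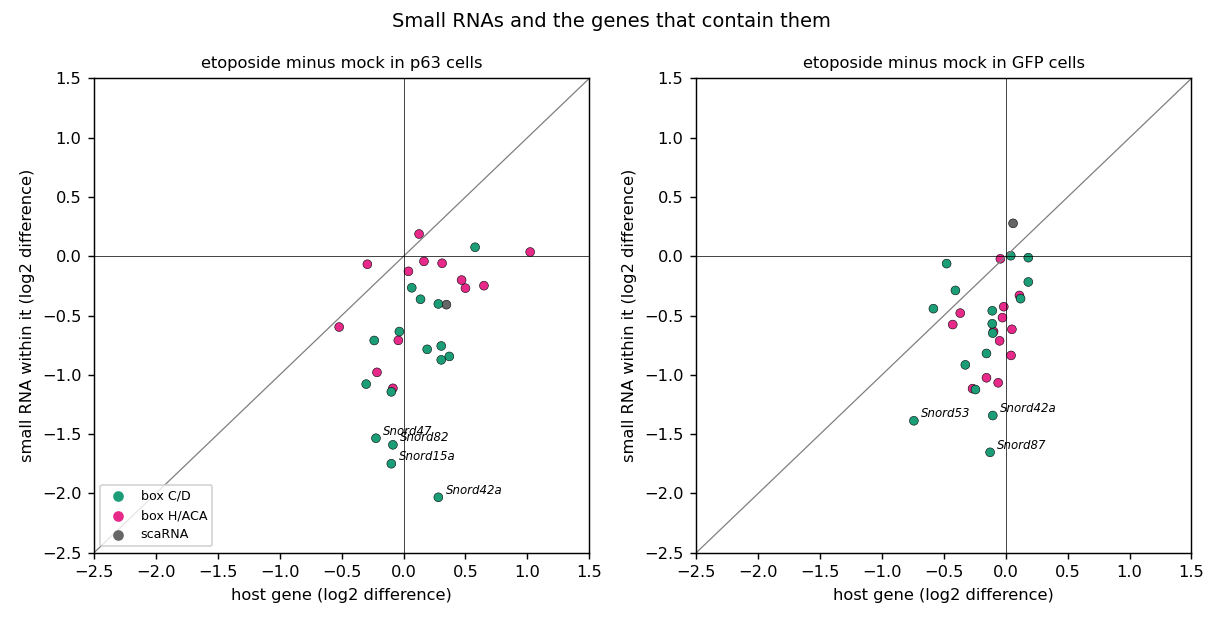
Etoposide minus mock (log2) of 30 small RNAs (vertical axis) against that of the gene that contains each (horizontal axis), in p63 cells (left) and GFP cells (right); the diagonal marks equal differences. Most points lie below the diagonal, 28 of 30 in p63 cells and 25 of 30 in GFP cells, and the hosts run from -0.52 to 1.02 in p63 cells and from -0.74 to 0.18 in GFP cells.

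Gas5, a gene whose exons encode no protein and whose introns hold many box C/D RNAs, had 4 probe sets that differed from one another. That of the highest signal read 11.27, 11.49, 11.45 and 11.70 in p63 etoposide, p63 mock, GFP etoposide and GFP mock cells, and its etoposide differences were -0.22 in p63 cells and -0.24 in GFP cells. The other 3 stood between -0.85 and -0.78 in p63 cells and between -1.88 and -0.69 in GFP cells. Which stretches of Gas5 these probe sets cover was not looked up. Snhg5, another snoRNA host, stood at -0.98 and -0.61. Of 7 probe sets of such noncoding hosts, from only 3 genes, 6 had both etoposide arrays below both mock arrays, where 18.8% of all named probe sets did. All 4 of Gas5 were among the 6.

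Within 10 hosts at least 2 of the small RNAs were measured, and neighbours could differ on the p63 mock array. Snord35a and Snord33 both lie within Rpl13a, and the p63 mock array minus the median of the rest was 3.22 for Snord35a and 0.52 for Snord33. Within Rpl23a it was 2.03 for Snord42a and 0.38 for Snord42b. The spread between neighbours was wider in this measure than in the etoposide difference of GFP cells in 9 of the 10 hosts. The etoposide differences in GFP cells were -0.31 and -0.46 in Rpl13a and -1.34 and -0.65 in Rpl23a. The exception was 2410006H16Rik, where Snord49a and Snord49b stood at 1.43 and 1.32 on the p63 mock array and at -0.91 and -0.38 after etoposide in GFP cells. The neighbours within Rps3a1, Snord73a and Snord73b, read alike, at 0.87 and 0.76 on the p63 mock array and at -0.57 and -0.46 after etoposide in GFP cells.

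Among probe sets of box C/D proteins 0 of 14, several of them of Snu13, had the order seen in the RNAs. Among those of box H/ACA proteins 0 of 6 had it, where 18.8% of all named probe sets did. These counts depend on the p63 mock array, whose difference from the median of the rest had medians of -0.31 and -0.55 in these lists. Without that array, both etoposide arrays lay below the GFP mock array in most of these probe sets, as they did in 73.5% of the small RNAs. Of all named probe sets of a mean above 7.81, 54.0% did so. Of 10 box C/D protein genes on the arrays 0 reached 1 in either direction after etoposide in either line, as for most named probe sets, with medians of 0.15 in p63 cells and -0.20 in GFP cells. Of 6 box H/ACA protein genes 0 did so either, with medians of 0.32 and -0.18. The p63 minus GFP difference in mock-treated cells had medians of -0.56 and -0.63 in the protein lists and of 0.33 and -0.003 in the box C/D and box H/ACA RNAs, where the brightest named probe sets, those of a mean above 7.81, had a median of -0.20. In each list 1 gene reached -1, Nufip1, an assembly factor, at -1.20 and Naf1, an assembly factor of box H/ACA particles, at -1.37. Dkc1, the pseudouridine synthase of box H/ACA particles, stood at -0.30 with p63 in etoposide-treated and -0.93 in mock-treated cells. Among 5 Cajal body genes Wrap53, which carries scaRNAs to that body, was higher after etoposide in both lines, at 2.09 and 1.24. In mock-treated cells 3 of the 5 were lower with p63 by at least 1, Wrap53, Smn1 and Nolc1, where 2.07% of all named probe sets were. Smn1, which assembles spliceosomal particles, stood at -1.25 there and at -0.47 in etoposide-treated cells.

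The RNA polymerase III list held 26 genes on the arrays, whose etoposide differences were all under 1 in size, as for most named probe sets, with medians of 0.17 in p63 cells and -0.20 in GFP cells. In mock-treated cells Snapc5, a subunit of the factor that binds the upstream promoters of these genes, was higher with p63 at 1.19 and Gtf3c5, a subunit of TFIIIC, lower at -1.02. Of 9 probe sets for proteins that bind Y RNA or act with 7SK RNA 6 had both etoposide arrays below both mock arrays, where 18.8% of all did. Among them was Ro60, which binds Y RNAs, at 8.57, 8.94, 8.63 and 9.10. Another was Hexim1, by a hair, at 7.8786 in p63 etoposide and 7.8802 in p63 mock cells. Differences of the 9 were under 1 in size in all 4 comparisons. In the RNA polymerase III list 5 of 27 probe sets had this order, and in the RNase P and MRP protein list 3 of 10. Rpp40, of the 10 RNase P and MRP protein genes, stood at -1.24 with p63 in mock-treated cells, and its difference in etoposide-treated cells was -0.78.

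Of the 4 probe sets of scaRNAs, which guide the modification of spliceosomal RNAs, 1 had both etoposide arrays below both mock arrays, where 18.8% of all did. In p63 cells 4 had an etoposide difference below 0, where 53.8% of all did. The p63 mock array minus the median of the rest had a median of 0.30, against 0.61 over the 68. The p63 minus GFP difference in mock-treated cells had a median of 0.62, against 0.32. Scarna13, within Snhg10, read 6.44, 6.84, 6.51 and 6.98 in p63 etoposide, p63 mock, GFP etoposide and GFP mock cells, low on both etoposide arrays. Scarna17 read 11.63, 11.78, 11.50 and 11.17, with the p63 mock array the highest and the GFP mock array the lowest, on both of its probe sets. Scarna8 read 5.60, 6.01, 5.37 and 5.09, of which 3 readings were below 5.87. Its signal was higher with p63 by 0.23 in etoposide-treated and 0.91 in mock-treated cells.

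Some of the 68 probe sets repeat one another. Scarna17, Snora30 and Snord118 each had 2 probe sets with the same values on all arrays, and those of Snora3, Snord58b and Snora21 differed by at most 0.06, so each such gene is 1 measurement counted 2 times. On all 4 arrays 8 of the 68 read below 5.87, those of Snord118, Snord37, Snord38a, Snord58b, Snord61 and Snord85, and on some arrays a further 8. The length of the RNA had a Spearman correlation of -0.12 with the p63 mock difference and of 0.34 with the etoposide difference in GFP cells across the 68 probe sets, as a description.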

How the data were processed

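RNA from the 4 samples, grouped by their titles, was amplified with a NuGEN whole-transcriptome kit before hybridisation, per the labels' protocols. The deposited values are log2 signals that the authors obtained by RMA (Expression Console by Affymetrix, no version stated), per the submitters' processing notes. RMA makes the distributions of the arrays alike, so a shift shared by most probe sets is largely removed. A platform annotation of 2016 gave 1 symbol for 21789 probe sets, several for 1621, and did not list 12102; 41 with several symbols, at least 1 of them of these families, were left out. Gene types, lengths and containing genes came from RefSeq (GRCm38.p6), whose table gave no strand for the small RNAs. The sequence tables used here matched none of these genes, so the planned motif search was not made.

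All 68 probe sets were kept. Differences between single arrays were taken in Python 3.11.15 (pandas 2.3.3) with functions tested on simulated data, and alternatives used limma 3.58.1. The number of arrays limits the precision. Genes, lists and measures were chosen with earlier results of these data known. The genes named by rule were every Rny, Rmrp, Rn7sk, Rpph1, Rprl and Scarna gene, the extremes of Snord and Snora against the rest and in each comparison, the brightest of them, genes apart on an array, the hosts of most small RNAs, and the farthest or called genes of the protein lists. Other genes named were chosen after their values were seen. Results that need certain withheld genes are not reported here.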

Additional observations from a re-analysis of the deposited data

Results flagged for a closer look

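Several genes had differences of opposite sign in the lines or treatments and a difference of differences of at least 1 in size, and with 1 array a group none of these was tested. Between the lines, the etoposide difference of p63 cells less that of GFP cells was -2.61 for Rny3 (-2.53 and 0.08), -1.55 for Rprl1 (-1.51 and 0.04), -1.18 for Rprl2 (-1.07 and 0.11) and 1.30 for Snora20 (0.19 and -1.12). The p63 minus GFP difference in etoposide-treated cells minus that in mock-treated cells was -2.96 for Snord35a (-0.05 and 2.91), -1.87 for Snord118 (-0.16 and 1.71), -1.42 for Snord55 (-0.30 and 1.12) and -1.13 for Snord15b (-0.13 and 1.00). Apart from Snora20, each of these had its highest reading on the p63 mock array, and the difference of smaller size in each pair was at most 0.30.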

How the results depend on the processing

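Of 199 values recomputed for 22 results, 169 kept their direction and lay within 1.5 times the value as deposited, 30 moved by more and 0 changed direction. The 169 include counts that were 0 as deposited and stayed 0, which have no direction to keep. No paired analysis was possible because each group has 1 array and the labels give no replicate numbers. Centring the arrays moved the median etoposide difference of all named probe sets in GFP cells to -0.09, against 0.03, and that of the small RNAs to -0.58. At a 1.5-fold threshold 38 and 23 of the 68 were called after etoposide in p63 and GFP cells, 4 and 26 between p63 and GFP under etoposide and mock treatment, and 24 in the difference of differences, where 15.9%, 12.7%, 5.22%, 17.2% and 21.5% of all named probe sets were called in either direction. Against the median of the other 3 arrays 13, 36, 19 and 15 were then called on p63 etoposide, p63 mock, GFP etoposide and GFP mock, where 8.05%, 15.2%, 8.42% and 11.3% of all were. On GFP etoposide and GFP mock 1 each stood apart, where 0.381% and 1.29% of all did. With readings below 5.87 raised to it, 6 were called after etoposide in GFP cells, the median in p63 cells was -0.44, the p63 minus GFP medians were 0.0244 under etoposide and 0.15 under mock treatment, and 0, 4 and 1 were called on p63 etoposide, GFP etoposide and GFP mock against the rest. With p63 etoposide set against GFP mock, which differ in virus and treatment, 4 were called in place of 20, where 4.58% of all were called in either direction. On the GFP mock array 5 were called against the rest after centring and 1 with either filter on dim probe sets, and its median was 0.16 against the mean of the other 3. On the p63 etoposide array 0 were called with either filter and 1 with 1 value a gene. The p63 minus GFP median under etoposide was 0.0556 after quantile normalization and 0.0384 with 1 value a gene. The count with both etoposide arrays below both mock arrays, a measure added after the data were seen, lay between 40 and 52 under the alternatives that kept all arrays. The causes were not tested beyond what each setting itself does. Background correction could not be varied, since probe intensities were not used here.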
